A study of Fragaria x ananassa with 6 samples.

Results

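Auxin transport, repression and conjugation were followed in ripe strawberry receptacle through 3 genes: gene09384, which the study describes as a probable auxin efflux carrier component 1c, gene11861, described as the Aux/IAA protein IAA27, and gene24005, described as a probable amido synthetase of indole-3-acetic acid (IAA) and called GH3.1 in the study. They were taken by identifier from the 35116 gene names of a custom array. Each had 1 probe, printed as 2 spots on every array, and no other probe on the array carried these names. All 3 stand in the list of genes that the study selected as higher on these same samples, so their direction is a description and not independent evidence. The arrays hold Fragaria x ananassa fruits that were injected, while attached to the plant, with Agrobacterium carrying an empty pFRN vector (control) or the same vector with a hairpin construct against FaPRE1 (RNAi), and RNA was drawn from pools of fruits, per the study's methods after the achenes had been removed. There were 3 control and 3 RNAi samples, paired on 3 arrays of 2 colours, with the RNAi sample in Cy3 on replicates 1 and 3 and in Cy5 on replicate 2. The silencing was transient and not a stable line, no age is given beyond the red stage, and both groups carry the Agrobacterium and the vector. One label of the RNAi samples calls them FaPRE1 overexpressors, while their titles, their source and the design text name the RNAi construct, which was followed here. No source states that the pools of one group came from separate plants, so p-values measure only the spread between these samples.

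Auxin is the main signal of early receptacle growth in strawberry, made largely in the achenes and moved into the flesh, and its decline goes with ripening. Efflux carriers of the PIN family carry auxin out of cells and set the direction of its flow. Aux/IAA proteins hold back the auxin response factors until auxin, bound by its F-box receptors, causes their degradation, and many Aux/IAA genes are themselves switched on by auxin. GH3 amido synthetases join IAA to amino acids, which stores it or marks it for breakdown, and are also early auxin-induced genes.

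Across the series, 60.7, 64.7 and 72.7% of gene spots were well above background in control replicates 1 to 3. In RNAi replicates 1 to 3 these shares were 44.1, 60.4 and 47.7%, lower than the control of the same array each time. The filter on dim probes was passed by 21098 genes. FaPRE1, the targeted gene, was measured by 2 entries of the array. For gene30478 the normalized log2 signals were 7.23, 8.23 and 7.73 in control replicates 1 to 3 and 7.22, 7.47 and 7.51 in RNAi, a log2 ratio of -0.33 (SE 0.17) with an adjusted p of 0.18 in limma, whereas the probe named FaPRE1 went from 10.39, 10.09 and 10.44 to 9.91, 9.55 and 9.91, a log2 ratio of -0.52 (SE 0.11, adjusted p = 0.015). FaPRE2 (gene28320) was at -1.15 (SE 0.11, adjusted p = 0.0016) and FaPRE3 (gene03986) at 0.74 (SE 0.11, adjusted p = 0.0063). The 4 ripe receptacle markers fixed here, FaMYB10, FaPG1, FaQR and FaAAT1, were all chosen by the study as lower on these samples. All 4 were called lower in RNAi, beside 17.9% of all genes tested, and because of that choice nothing is read from this.

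All 3 auxin genes were higher in RNAi than in control receptacles when measured against the bulk of genes, by 6.23 to 7.75-fold, and none of their groups overlapped. Among all genes tested 16.9% were called higher at an adjusted p under 0.05, 1.32% were called higher and also lay beyond 4-fold, and 24.7% had every RNAi signal above every control signal. Because the genes were picked for their response, nothing is read from these shares.

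gene09384, the efflux carrier, had normalized signals (log2, after background correction, loess and scaling between arrays) of 7.05, 6.63 and 6.03 in control replicates 1 to 3 and of 9.53, 9.77 and 9.28 in the RNAi replicates. Its control mean was 6.57 ± 0.51 (SD, n = 3) and its RNAi mean 9.53 ± 0.25 (SD, n = 3), so that the lowest RNAi sample lay well above the highest control. On the 3 arrays the log2 ratio was 2.47, 3.14 and 3.25, and the fit gave 2.95 (SE 0.18, 95% interval 2.52 to 3.39), or 7.75-fold, with a limma adjusted p of 0.00054. The spread lay mostly among the controls. Its 2 spots differed by 0.03, 0.22 and 0.37 in log2 ratio on replicates 1, 2 and 3.

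gene11861, the Aux/IAA repressor, had the smallest spread of the 3 after normalization. Its normalized signals were 9.27, 8.92 and 9.10 in control and 11.68, 11.83 and 11.70 in RNAi, with means of 9.10 ± 0.18 and 11.74 ± 0.08 (SD, n = 3 each). The controls spanned less than 1 doubling and the RNAi samples were nearly equal. The log2 ratio was 2.41, 2.91 and 2.60 on the 3 arrays and 2.64 in the fit (SE 0.14, 95% interval 2.30 to 2.98), or 6.23-fold, with a limma adjusted p of 0.00039.

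gene24005, the amido synthetase, had normalized signals of 7.54, 6.51 and 5.84 in control and of 9.50, 9.66 and 9.16 in RNAi. The control mean was 6.63 ± 0.86 and the RNAi mean 9.44 ± 0.26 (SD, n = 3 each), with control replicate 1 standing higher than the other controls. That array gave the smallest log2 ratio, 1.96, against 3.15 and 3.32 on replicates 2 and 3. The fit gave 2.81 (SE 0.27, 95% interval 2.13 to 3.49), or 7.02-fold, with a limma adjusted p of 0.0018. The 95% intervals of the 3 genes overlapped, and differences between the genes were not tested.

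**Figure D1:**
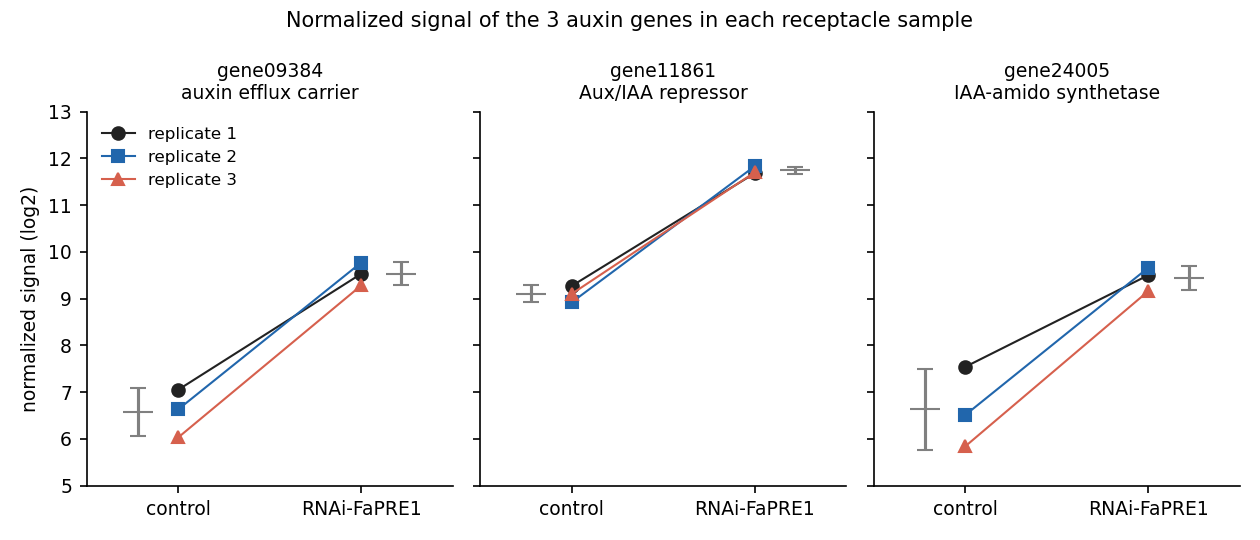
Normalized signal (log2, vertical axis) of the efflux carrier gene09384, the Aux/IAA gene gene11861 and the amido synthetase gene24005 in control and RNAi receptacles. Points joined by a line are the 2 samples of one array, and grey bars are the mean ± SD of 3 samples; the highest control of gene24005, 7.54, lies below its lowest RNAi sample, 9.16.

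The size of the change rests on what the signals are set against, and the deposited signals show this directly. For gene09384 the median signal less the local background, averaged over both spots, was 200, 41.2 and 92.5 intensity units in control replicates 1, 2 and 3 and 317, 639 and 245 units in RNAi. gene11861 was at 1360, 492 and 1930 units in control and at 1310, 2920 and 968 units in RNAi. For gene24005 these signals were 315, 32 and 63 units in control and 298, 591 and 238 units in RNAi. Before any scaling gene09384 was thus brighter in the RNAi channel on 3 of 3 arrays, gene24005 on 2 of 3 and gene11861 on 1 of 3. The Cy3 and Cy5 channels are not on a common scale at this step, so these counts are not free of the dye.

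As log2 ratios without any scaling these values were 0.69, 3.95 and 1.41 for gene09384 on replicates 1, 2 and 3. gene11861 was at -0.06, 2.57 and -0.99. gene24005 was at -0.09, 4.20 and 1.95. Replicate 2, the array with the dyes the other way round, was the highest for each gene. The other spots of the arrays moved likewise: the median over the spots of kept probes was -2.20, -0.53 and -3.35. Background correction by normexp with its offset first brought the ratios to 0.48, 2.78 and 0.81 for gene09384, to -0.07, 2.43 and -0.97 for gene11861 and to -0.13, 2.81 and 1.06 for gene24005. The loess curve, which sets the bulk of spots of like brightness to 0, then raised gene09384 by 1.99, 0.36 and 2.43, gene24005 by 2.09, 0.34 and 2.26, and gene11861, the brightest of them, by 2.48, 0.48 and 3.57. After loess all 9 ratios, 3 genes on 3 arrays, were between 1.96 and 3.32, with an SD over arrays of 0.42 for gene09384, 0.25 for gene11861 and 0.74 for gene24005, against 1.24, 1.76 and 1.48 just before loess.

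**Figure D2:**
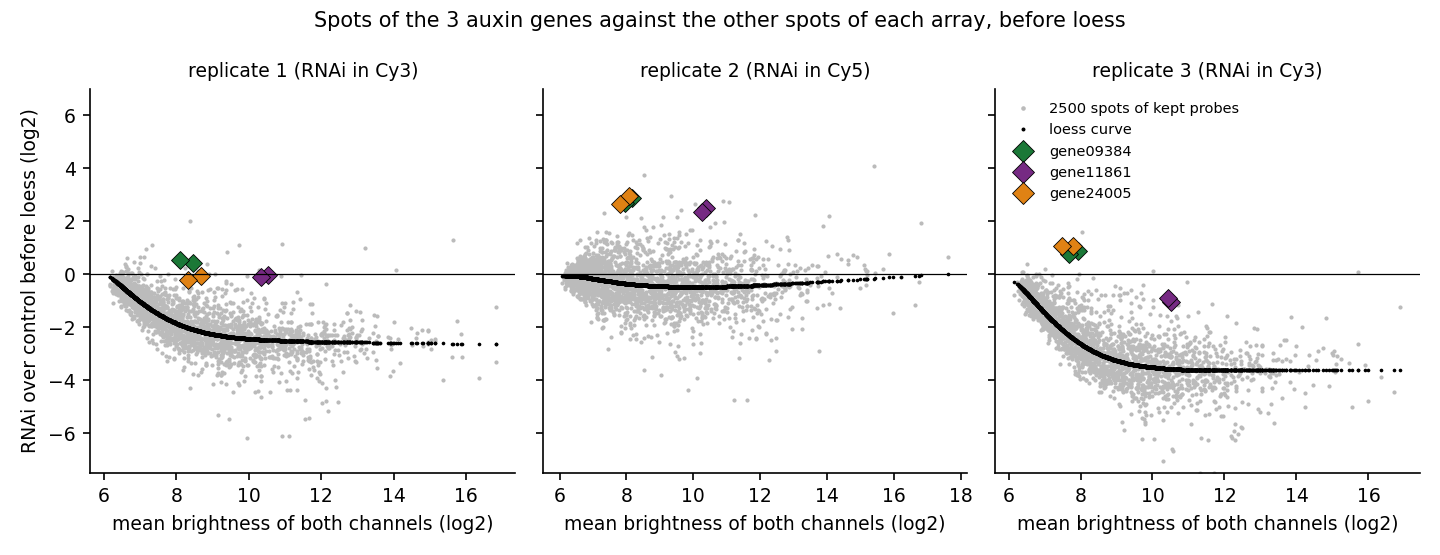
Log2 ratio of RNAi over control before loess (vertical axis) against the mean log2 brightness of both channels (horizontal axis) on each array. Grey points are 2500 spots of kept probes drawn at random, the black curve is the loess fit and diamonds are the 2 spots of each auxin gene; the diamonds lie above the curve on all 3 arrays, while those of gene11861 lie below 0 on replicates 1 and 3 and those of gene24005 on replicate 1.

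Spike-in transcripts, RNAs added before labelling that no plant makes, with 10 probes of 35 spots each on the array, give a reference that does not rest on the strawberry genes. Over these spike-ins the median of the kept genes was at -4.22, -3.66 and -3.21 (log2) in control replicates 1 to 3 and at -5.64, -5.80 and -5.89 in RNAi. Within a dye, this was 2.10 lower in RNAi for Cy3 and 2.09 lower for Cy5. The auxin genes did not follow that drop. gene09384 lay at -5.49, -6.11 and -6.22 over the spike-ins in control and at -3.87, -3.80 and -3.97 in RNAi, which differ by 2.12 when compared within each dye and averaged. gene24005 lay at -4.82, -6.48 and -6.81 in control and at -3.97, -3.92 and -4.01 in RNAi, a within-dye difference of 2.19. For both genes every RNAi sample stood above every control sample. gene11861 lay at -2.70, -2.52 and -1.83 in control and at -1.81, -1.60 and -1.97 in RNAi, a within-dye difference of 0.65. Its groups overlapped only across dyes, with control replicate 3 (Cy5) above RNAi replicate 3 (Cy3). Within Cy3 and within Cy5, every RNAi sample of gene11861 stood above every control sample. Since each dye held a single sample of one of the groups, these differences were not tested. Whether the samples held equal amounts of RNA at labelling was not tested, so the drop is a place relative to the spike-ins only. In pooled tissue, fewer cells of a type and less RNA per cell cannot be told apart.

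**Figure D3:**
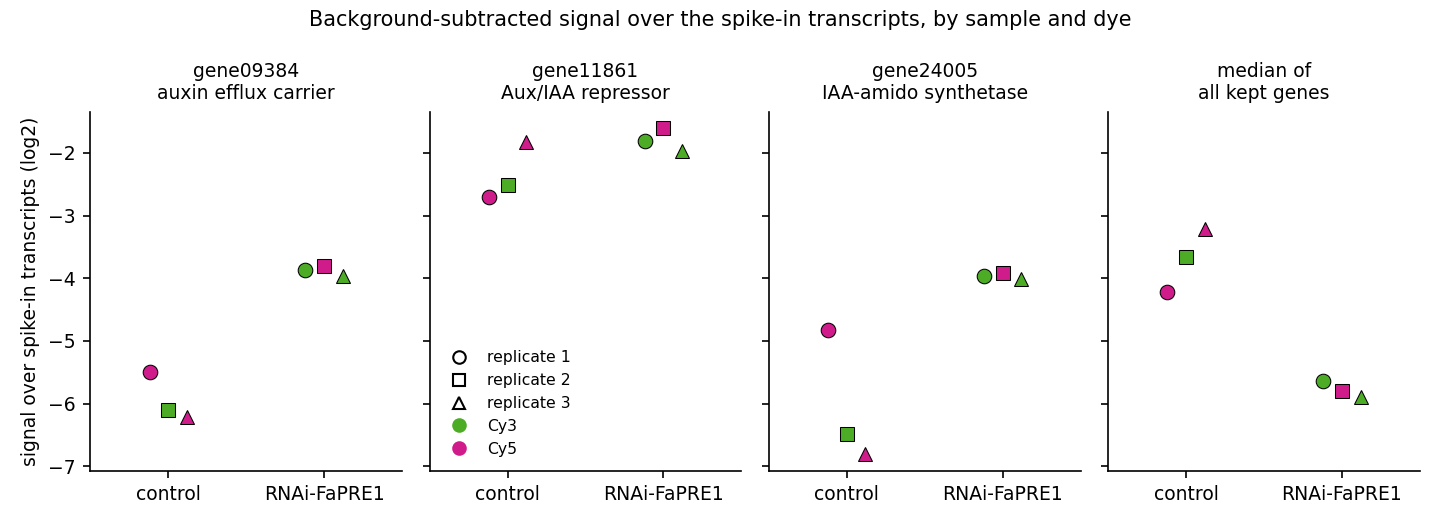
Background-subtracted signal over the mean spike-in signal of the same channel (log2, vertical axis) for the 3 auxin genes and for the median of all kept genes, by sample. Fill gives the dye and shape the replicate. gene09384 and gene24005 are higher in all RNAi samples, and the median of the genes is lower in all RNAi samples. gene11861 overlaps between the groups only across dyes.

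The same contrast of the genes showed in the other scalings. With all spots centred on their median, which leaves the median of the tested genes at -0.89, gene09384 was at 1.99 (adjusted p = 0.058), gene24005 at 1.88 (adjusted p = 0.069) and gene11861 at 1.09 (adjusted p = 0.18). No gene of the array was called under that centring by limma, while 9001 had an unadjusted p under 0.05. The scanner software's processed signals gave larger ratios for the dim genes, 4.22 for gene09384 and 4.25 for gene24005, and 2.84 for gene11861. Plain subtraction of the local background gave 4.12, 4.08 and 2.83 in the same order. The main setting adds an offset of 50 units to each signal, which shrinks the ratios of dim spots.

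**Figure D4:**
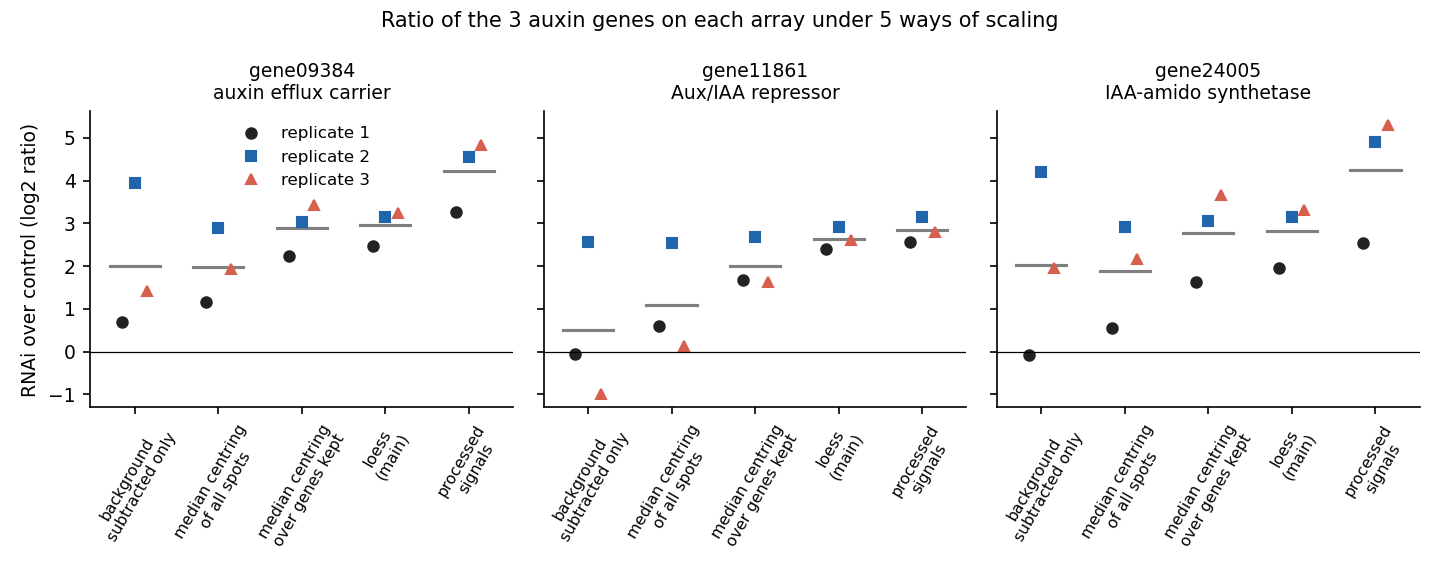
Log2 ratio of RNAi over control (vertical axis) of each auxin gene on each array under 5 scalings (horizontal axis). Points are arrays and grey bars their mean; the loess values lie between 1.96 and 3.32, and the unscaled values lie below 0 for gene11861 on replicates 1 and 3 and for gene24005 on replicate 1.

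Markers of achene tissue, which had been removed before extraction, were also measured in the same samples. They were 7 seed storage and oil body genes (legumins, a vicilin and oleosins). Of these, 6 were called higher, beside 16.9% of all genes tested, but those 6 were chosen by the study on these samples. Their direction is therefore not independent evidence. The only one not chosen in that way, gene01466, was at 0.40 (SE 0.22, limma adjusted p = 0.21), and its groups overlapped. The summed normalized signal of the 7 genes, which includes the chosen ones, ranged from 13.31 to 13.81 (log2) in control and from 17.12 to 17.28 in RNAi. All 7 were well above background in every sample, and legumin gene08096 had the highest ratio of them, 4.63 (SE 0.25). The part of seed tissue in the higher auxin genes was not tested.

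The study's list of higher genes holds 4 further auxin genes, and all 4 were higher here, a direction fixed by how they were chosen. Their median log2 ratio was 1.76, against -0.04 for all genes tested. gene10566, another amido synthetase, had normalized signals of 6.47, 7.35 and 7.16 in control and 8.84, 9.29 and 8.96 in RNAi, a log2 ratio of 2.04 (SE 0.15, adjusted p = 0.00088). gene22838, also an amido synthetase, had 8.94, 7.52 and 7.26 in control and 9.62, 9.76 and 9.55 in RNAi. Its ratio was 1.74 (SE 0.33, adjusted p = 0.012), carried by replicates 2 and 3 at 2.25 and 2.29, while replicate 1 was at 0.68, and the adjusted p was 0.084 without replicate 2 and 0.054 without replicate 3. The control of replicate 1 was its highest control, as in gene09384, gene11861, gene24005, gene04899 and gene18208, while in gene10566 it was the lowest. gene04899, which encodes a D6PK-like kinase of the group that activates efflux carriers in Arabidopsis, had 7.99, 7.69 and 7.46 in control and 9.55, 9.54 and 9.42 in RNAi, a ratio of 1.79 (SE 0.13, adjusted p = 0.00084). gene18208, a WAT1-related transporter of the family whose Arabidopsis founder exports auxin from the vacuole, was at 1.41 (SE 0.20, adjusted p = 0.0052). Over the spike-ins, compared within dyes, these genes were at 0.66, 0.10, 0.02 and -0.43 in the order given, and at -0.06, -0.35, -0.31 and -0.69 with the shift of all genes added to their loess ratios, so that only their place relative to the bulk kept its direction.

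A second list holds the 18 auxin genes among the 1601 genes, in order of identifier, for which a description regardless of response was at hand. It covers synthesis, transport, perception, conjugate hydrolysis and early response, and it stayed near the bulk of genes. The list holds no Aux/IAA gene and no amido synthetase, so it does not cover the families of gene11861 and gene24005. Of the 18 genes, 10 passed the filter on dim probes, 6 of them in both groups. Another 3 passed through control alone (gene01005, gene01695 and gene01697) and 1 through RNAi alone (gene00283). Of the 10, 2 were called higher, gene00283 among them, 2 lower, gene01695 among them, and 6 were not called. The median of the 10 was 0.02 on the loess scale and -2.07 with the spike-in shift added. For comparison, 1034 of the 1601 genes were tested, with a median of -0.04, 16.1% called higher and 15.9% called lower.

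Among transport genes of that list, gene00469, described as efflux carrier component 1b, had signals of 7.65, 7.46 and 7.48 in control and 7.34, 7.26 and 7.28 in RNAi, a log2 ratio of -0.24 (SE 0.11, 95% interval -0.50 to 0.03, adjusted p = 0.14). This is an efflux carrier like gene09384, and its interval does not reach that of gene09384. As gene09384 was picked for its response, nothing is read from that gap, and the difference between the carriers was not tested. The other described carrier, gene01267, component 5, passed the background threshold in 1 control and 1 RNAi sample and was not tested. gene00117 encodes PINOID, a kinase that directs PIN carriers to their side of the cell. Its signals were 7.15, 7.12 and 7.10 in control and 7.63, 7.66 and 7.64 in RNAi, a rise of 0.52 (SE 0.11, adjusted p = 0.015) with less spread than any member. Leaving out replicate 2 or replicate 3 ended that call (adjusted p = 0.056 and 0.1). The WAT1-related gene00283 was at 0.82 (SE 0.13, adjusted p = 0.0078) and was well above background in 3 RNAi samples and 1 control, so it passed only through the group where it was high and its call is no support for a change. Its ratio is poorly fixed, at 3.97 with the processed signals. Its relative gene00685 was at 0.06 (SE 0.11, adjusted p = 0.68), and both gene00686, also WAT1-related, and gene01309, a D6PK-like kinase, were too dim to test. Over the spike-ins, with the shift of all genes added to the loess ratios, gene00117 was at -1.57.

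For perception and repression, gene01376, an AFB2-like auxin receptor, was bright and near the bulk at 0.12 (SE 0.15, 95% interval -0.26 to 0.49, adjusted p = 0.57), with signals from 10.45 to 10.94 in control and from 10.71 to 11.05 in RNAi. The corepressor gene01110, topless-related, was not tested for lack of signal. FaIAA33, an Aux/IAA gene by the name the array gives it, was looked up outside the fixed lists after its values were at hand. It had signals of 9.44, 10.51 and 10.51 in control and 10.56, 10.59 and 10.64 in RNAi. Its ratio of 0.44 (SE 0.22, adjusted p = 0.17) came mostly from replicate 1, at 1.12, beside 0.08 and 0.13, the groups did not overlap, and its probes gave 0.58 and 0.31. The difference between gene11861 and this second Aux/IAA gene was not tested.

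On the metabolic side, gene00715, an ILR1-like hydrolase of the kind that frees IAA from the conjugates GH3 enzymes make, was lower, with 10.00, 10.19 and 10.03 in control and 9.44, 9.39 and 9.57 in RNAi. The groups did not overlap, and the log2 ratio was -0.61 (SE 0.12, adjusted p = 0.014), with an adjusted p of 0.057 without replicate 2 and 0.056 without replicate 3. Of the YUCCA flavin monooxygenases, which make IAA, gene01005 was at -0.01 (SE 0.11, 95% interval -0.28 to 0.25). It was dim, with signals from 6.55 to 6.66, and well above background in 3 control samples but only 1 RNAi sample. Its ratio is therefore poorly fixed, and gene00528 was not well above background in any sample. Of 6 early response genes, relatives of the SAUR and ARG7 families that auxin induces within minutes in other plants, 3 were tested. None was called higher and 1 lower, beside 16.9% and 17.9% of all genes tested. With 3 genes, nothing is read from these counts. gene01695 was at -0.41 (SE 0.11, limma adjusted p = 0.034), but no RNAi sample had it well above background. It passed the filter only through the group where it was high, so its call is no support for a change. It lost that call without any one replicate, with adjusted p from 0.058 to 0.19, and with a dye term (0.054). gene01697 was at -0.32 (SE 0.11, adjusted p = 0.076) and gene01688 at 0.20 (SE 0.13, adjusted p = 0.28).

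**Figure D5:**
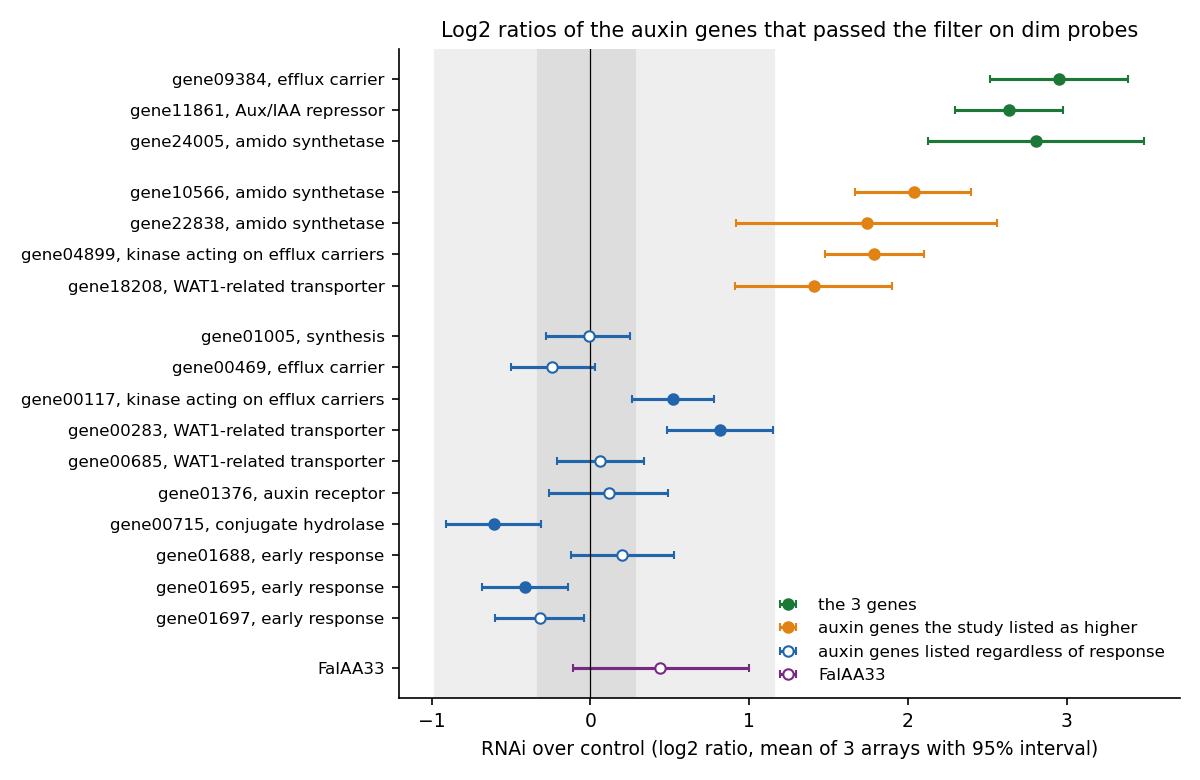
Log2 ratio of RNAi over control (horizontal axis, mean of 3 arrays with its 95% interval) of the auxin genes that passed the filter on dim probes, by list. Filled points were called at an adjusted p under 0.05; the dark and light bands hold the middle 50% and 90% of all genes tested, and the 3 auxin genes lie between 2.64 and 2.95, right of both bands.

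The genes most like each auxin gene in their normalized signal over the 6 samples were ranked by Pearson's r. The samples form 2 groups set apart by the treatment and share arrays in pairs, so a high r is common: 1741 genes had r above 0.95 with gene09384, 1404 with gene11861 and 1396 with gene24005. For gene09384 the nearest were gene20050 (r = 0.9994), gene07638, a subtilisin-like protease (0.9994), and gene29685 (0.9990), and the next described genes were gene07623, a thaumatin (0.9989), and gene15778, a peroxidase (0.9989). For gene11861 they were gene14757 (0.9998), gene10770 (0.9996) and gene05608, described as the receptor-like kinase BAM1 (0.9993). The next described genes were gene26269, with the same description (0.9987), and gene00117, the PINOID kinase of the second list (0.9978), whose ratio is far smaller, at 0.52. For gene24005 they were gene14145 (0.9992), gene31052 (0.9991) and gene31978 (0.9989). Its nearest described genes were gene08773, a golgin (0.9978), gene18208, the WAT1-related transporter of the study's own list (0.9961), and gene10417, a glutamate dehydrogenase (0.9953). Likeness here means the order and spacing of 6 samples, not the size of the change, as these genes had ratios between 0.52 and 3.21.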

How the data were processed

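Samples were 3 control and 3 RNAi receptacle pools, paired on 3 custom oligonucleotide arrays of 2 colours. The authors deposited the scanner output of Agilent Feature Extraction 10.7 (per the labels), with median spot and local background intensity per channel, not normalized, and processed intensity. Coordinates of the genes are not used here. From the deposited intensities, normexp background correction (offset 50), loess within arrays with control and outlier spots at weight 0, and averaging of spots and then probes gave 1 log2 ratio per array, turned so that positive means higher in RNAi; Aquantile scaling gave signals per sample. A probe was kept if, in either group, at least 50% of its spots passed the scanner's well-above-background flag on each of the 3 arrays, which left 21218 of 35337 probes and 21098 genes. Ratios were fitted with lmFit and eBayes (limma 3.58.1, R 4.3.3), adjusted by Benjamini-Hochberg over all genes and called at an adjusted p under 0.05. The number of arrays limits the precision. The array is the replicate number and so the block: same-numbered samples shared an array, with correlations of their deviations of 0.43, -0.04 and 0.17. All arrays shared 1 slide and 1 scan. The steps were run on simulated data in which few genes changed, in random directions, so a shift of the bulk of genes was not covered.

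The members, lists and markers were chosen with earlier results of these data known. Genes named are the members, auxin genes with a description in the study's lists (identifiers and descriptions only), the 3 described and 3 other genes most correlated with each member, and the FaPRE genes; FaIAA33 and the probe named FaPRE1 were added. The study's own fold changes and p-values were not used. The extract protocol label names floral buds where the study describes receptacles. None of the array's gene names matched the reference gene table, so no sequences are given. Alternatives covered background, scaling, filter, block, dye, variance trend, the methods' t-test and each left-out replicate.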

Additional observations from a re-analysis of the deposited data

How the results depend on the processing

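The 3 auxin genes kept their direction under every alternative run, and kept an adjusted p under 0.05 in limma under each one with a test except 1: with all spots centred on their median, gene09384 was at 1.99, gene11861 at 1.09 and gene24005 at 1.88, past no threshold. That centring called 0 genes of all tested (9001 at an unadjusted p under 0.05), 0 of the other auxin genes higher and 0 lower, and the cause was not tested. Without a test, the loess ratios shifted by the spike-ins were 0.86, 0.55 and 0.72 for gene09384, gene11861 and gene24005, and background-subtracted signals over the spike-ins, chosen after seeing the data, gave 2.12 for gene09384 and 0.65 for gene11861.

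Over the replicates left out in turn, gene09384 ranged from 2.81 to 3.19, gene11861 from 2.50 to 2.76 and gene24005 from 2.55 to 3.24. The count of genes called, 7350, ranged from 3458 without replicate 3 and 4304 without replicate 2 to 7125 without replicate 1. Among the 14 tested of the 22 other auxin genes, 6 were called higher and 2 lower, beside 16.9% and 17.9% of all genes tested. Of the 6, 4 were chosen by the study as higher on these samples, so nothing is read from this count. Leaving out a replicate gave 4 to 6 higher and 0 to 1 lower. Median centring over the genes kept, the stricter filter on dim probes, the dye term and the methods' t-test with adjustment each left 1 lower; the cause was not tested.

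Without the replicate block, the 6 signals taken as independent gave 2.95, 2.64 and 2.81 for the 3 genes (adjusted p = 0.00035, 3.9e-05 and 0.0021) and 7358 genes called; no call on the 3 genes changed. The methods' t-test called 279 genes higher and 131 lower, of 21098 tested, at the study's threshold on fold and unadjusted p, and 4934 after adjustment. All 3 auxin genes were among the higher, but the study selected them as higher on these samples, so nothing is read from this. No count of calls was computed for the spike-in scaling. Dim spots limit gene09384 and gene24005 most: their control signals lay between 32 and 315 units over background.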
